A study of Homo sapiens with 4 samples.

Results

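Selenoproteins are enzymes and carriers that hold selenium as the amino acid selenocysteine. The 10 genes described here are SELENOP and 8 other selenoprotein genes (SELENOS, SELENOK, SELENOT, GPX1, GPX4, TXNRD1, TXNRD2 and SEPHS2), together with SECISBP2, which encodes a factor needed to make them. They were chosen by name, with the difference of SELENOP known, from the 18377 genes that had a probe set of 1 gene on the array, with the brightest probe set over the 4 arrays standing for a gene. All 10 passed the filter on dim genes and were among the 11026 genes tested. SELENOP was selected on its log2 difference between VS-5584 and DMSO, so its values are a description and carry no test. The others were added for their function, with earlier results in view.

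RNA came from OPM2, an established human multiple myeloma line, grown in medium with fetal bovine serum. All cells were of this 1 line, so no normal plasma cell and no second myeloma was compared. Of 4 one-colour arrays, 2 carried RNA of cells given the solvent DMSO and 2 carried RNA of cells given VS-5584 (SB2343), an inhibitor of class I PI3 kinases and mTOR, each after 24 h. The labels give 123 nM of the drug, and the series' design text 125 nM. The design was meant to catch relatively early changes in expression below the 48-h IC50. The titles call the arrays biological replicates and do not say how the cultures were separated, so p-values measure the spread between these samples, which may be technical.

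Selenocysteine is encoded by a UGA codon, which elsewhere stops translation. A structured SECIS element in the mRNA, the SECIS-binding protein SECISBP2 and a dedicated elongation factor let the ribosome insert selenocysteine there. SELENOP is secreted, mainly by the liver, and carries selenium through plasma to cells that take it up by LRP8 or LRP2. In liver cells its transcription is known to be raised by FOXO factors and lowered by insulin. Plasma cells fold and export large amounts of immunoglobulin, and several selenoproteins sit in the endoplasmic reticulum, where that folding takes place.

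VS-5584 replicate 2 stood apart from the other arrays before any gene was considered. Over all probe sets its upper quartile was an intensity of 106, against 115 to 118 on the others. Its lower quartile (31.9, against 29.9 to 31) and its median (52.5, against 49.3 to 50) were the highest. Its intensities were thus less spread out and not lower throughout. The median tested gene lay -0.14 from the DMSO mean on the log2 scale, against -0.0022 on VS-5584 replicate 1. The members are therefore also given array by array below. For several other genes only the mean difference is given. A fit without 1 VS-5584 array leaves that group with a single array, assumed to vary like the 2 DMSO arrays, whose gap for the gene, moderated by the gaps of all genes, then gives the spread. Without VS-5584 replicate 1, 23.9% of all genes tested passed limma at an adjusted p under 0.05 (2636 of 11026), and without replicate 2, 0.0181% did, so a call in the first of these fits is common. All 7 plasma cell markers were tested, with log2 intensities from 6.52 (CD38) to 11.28 (PRDM1). The 16 markers of hepatocytes, fibroblasts, T cells, monocytes and endothelial cells lay between 4.62 and 6.51. ALB, the hepatocyte's main secreted protein, was at 4.67 and 4.72 with DMSO and at 4.70 and 4.73 with VS-5584, near the lowest intensities of the table.

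The region just before the start of SELENOP is shown because SELENOP is the member with the largest difference. It is the 250 bases upstream of the annotated start, from RefSeq on GRCh38.p14, chr5:42811893-42812142, minus strand. Capitals mark GTAAACA, the core of the element that FOXO factors bind, and TATAAA, the TATA box. The 120 bases before SEPHS2 (chr16:30445875-30445994, minus strand) are set beside it, as the other member with a TATA box near its start.

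SELENOP: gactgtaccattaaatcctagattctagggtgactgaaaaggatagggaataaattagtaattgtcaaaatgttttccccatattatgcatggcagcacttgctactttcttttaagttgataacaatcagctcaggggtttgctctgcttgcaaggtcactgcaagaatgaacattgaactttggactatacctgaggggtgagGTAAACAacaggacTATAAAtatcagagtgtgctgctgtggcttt
SEPHS2: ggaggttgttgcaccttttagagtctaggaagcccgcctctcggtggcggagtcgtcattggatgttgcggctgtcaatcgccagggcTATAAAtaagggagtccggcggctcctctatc

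GTAAACA was searched on both strands in the 250 bases before each annotated start. It was found in 1 of the 16 windows of the 10 genes, that of SELENOP, where it runs from 45 to 39 bases before the start. Of all 35116 windows of the same length, 2.98% held it. TATAAA, also on both strands, was in 3 of the 16 windows, of SELENOP (31 to 26 bases before the start), SEPHS2 (32 to 27 bases) and TXNRD2 (on the opposite strand, 120 to 115 bases), against 10.7% of all windows. CACGTG, the E-box of MYC and TFE factors, reads the same on both strands and was in 4 of the 16 windows, of GPX1, SECISBP2, SELENOS and SEPHS2, against 6.34% of all windows. TGACNNNGC, the core of the antioxidant response element, was in 5 of the 16 windows, 2 of TXNRD1 and 1 each of SECISBP2, SELENOK and SELENOP, against 10.9% of all windows. The endoplasmic reticulum stress element, CCAAT and then CCACG after 9 bases of any kind, was in 0 of the 16 windows and 0.074% of all. Each is a match of letters and says nothing of binding, which was not measured. The motifs were picked with the gene values known.

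SELENOP, the plasma selenium carrier, was higher on both arrays of VS-5584-treated cells than on both DMSO arrays. Its intensity was 162 and 152 on DMSO replicates 1 and 2, and 235 and 455 on VS-5584 replicates 1 and 2. On the log2 scale these are 7.34, 7.25, 7.88 and 8.83. The DMSO arrays were close together, 0.08 apart, the VS-5584 arrays were 0.95 apart, and the groups did not overlap. The group means were 7.29 ± 0.059 and 8.35 ± 0.67 (SD, n = 2 each), a difference of 1.06, or 2.09-fold. In a culture measured in bulk, a change in the share of cells that express a gene and a change in RNA per cell cannot be told apart.

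Most of the SELENOP difference came from 1 array. On the log2 scale it was 0.59 on VS-5584 replicate 1 and 1.54 on VS-5584 replicate 2, the latter a 2.90-fold difference. Ranked by their difference from the DMSO mean, 28 of the 11026 tested genes lay above SELENOP on replicate 1, and 0 lay above it on replicate 2, the array that stood apart. The difference was 1.18 after median centring and 1.23 after cyclic loess normalization. Relative to the median of all genes tested, which was -0.06 as deposited, 0.05 after centring and 0.01 after loess, SELENOP lay 1.12, 1.12 and 1.23 higher.

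**Figure D1:**
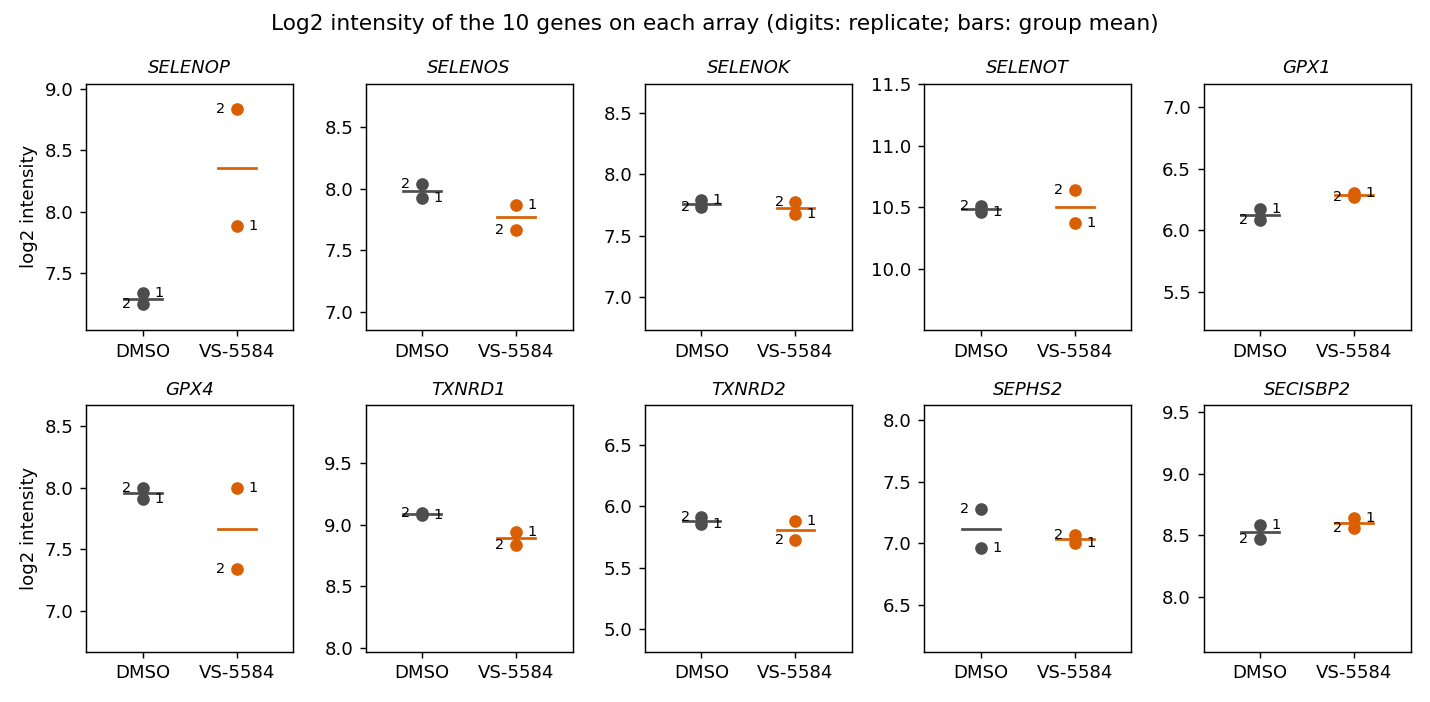
Log2 intensity of each of the 10 genes (vertical axis, 2 log2 units in every panel) on the 2 DMSO and 2 VS-5584 arrays, with the replicate number beside each point and the group mean as a bar. SELENOP is the 1 panel where the VS-5584 arrays (7.88 and 8.83) lie far above the DMSO arrays (7.34 and 7.25), and GPX4 the 1 where VS-5584 replicate 2 (7.34) alone lies far below; levels of different genes cannot be compared.

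LRP8, the receptor that takes up SELENOP in brain and testis, was lower on both VS-5584 arrays. It stood at 8.56 and 8.83 with DMSO and at 8.36 and 8.12 with VS-5584, a log2 difference of -0.46 ± 0.15 (SE), with a 95% interval of -0.80 to -0.11 (limma adjusted p = 0.390, over all genes tested). It was -0.33 on replicate 1 and -0.58 on replicate 2. The difference was -0.34 after median centring and -0.29 after cyclic loess. LRP8 passed after neither, nor with the replicate block, an intensity trend or 16 subtracted from every intensity. The receptor gene LRP2 was between 4.91 and 5.07 on the 4 arrays and LRP1 between 5.39 and 5.51. Both fell below the filter on dim genes and were not tested.

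Among all 11026 genes, 0 passed limma's test at an adjusted p under 0.05 (0%), while 1149 had an unadjusted p under 0.05. The same test called 0 of the 9 members other than SELENOP, and 0 of them had an unadjusted p under 0.05. Their adjusted p-values ran from 0.587 to 0.961. Of the 10 members, 2 (SELENOP and GPX1) were higher on both VS-5584 arrays than on both DMSO arrays, where 14.7% of all genes tested were. Another 2 (SELENOS and TXNRD1) were lower on both, where 29.2% of all genes were, and 6 overlapped. These shares are near the background and are not a result about the group. The median log2 difference of the 10 members was -0.06, as was that of all genes tested (-0.064). Without SELENOP it was -0.082.

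The split of non-overlapping genes depended on the scaling between arrays. Over all genes 33.4% of those that did not overlap were higher as deposited, 58.7% after median centring and 50.2% after cyclic loess. After loess, SELENOP, GPX1 and SECISBP2 were the members higher on both VS-5584 arrays and TXNRD2 the 1 lower on both, against 22.6% and 22.5% of all genes, while SELENOS and TXNRD1 overlapped. After centring, SELENOP, GPX1 and SECISBP2 were higher on both and SELENOS and TXNRD1 lower on both, against 27.9% and 19.7% of all genes.

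**Figure D2:**
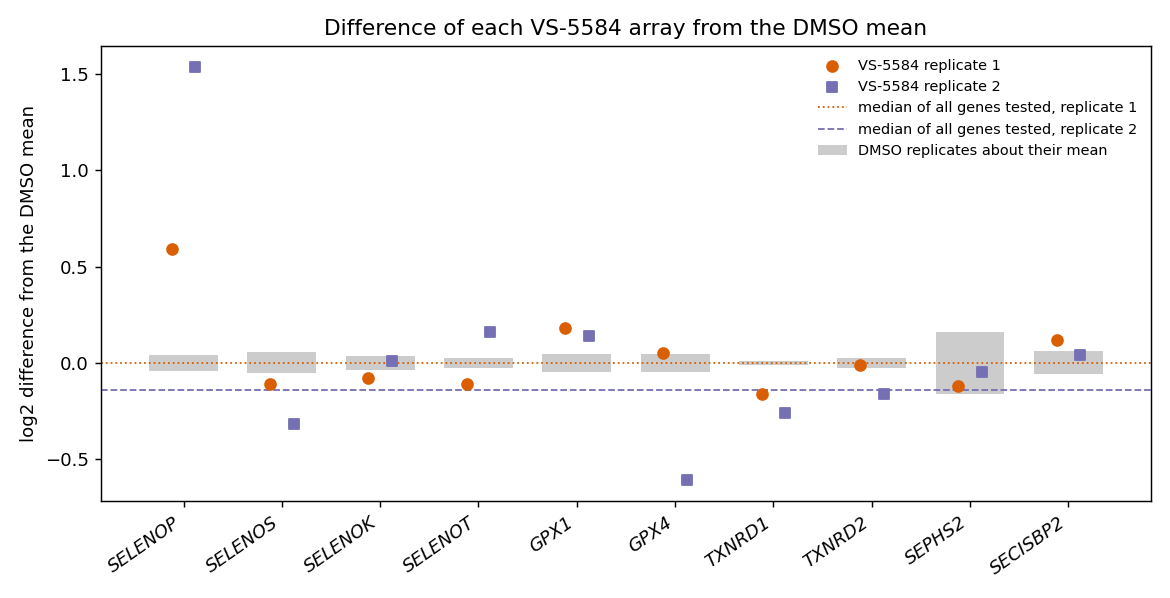
Log2 difference of each VS-5584 array from the DMSO mean for the 10 genes, with the DMSO replicates as grey bars about their mean and the median of all genes tested as lines. SELENOP lies at 0.59 and 1.54, GPX4 at 0.05 and -0.61, and the other 8 genes within -0.32 and 0.18.

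SELENOS, SELENOK and SELENOT are the members of the endoplasmic reticulum, and none of them passed the test. SELENOS, which links the derlin channel to the ATPase VCP in the removal of misfolded proteins, was at 7.93 and 8.04 with DMSO and at 7.87 and 7.67 with VS-5584. Its groups did not overlap, the drug-treated arrays being lower, and the log2 difference was -0.21 ± 0.14 (SE), with a 95% interval of -0.53 to 0.10 (limma adjusted p = 0.603). SELENOK, a membrane protein that works with the palmitoyltransferase ZDHHC6, was at 7.79 and 7.73 with DMSO and at 7.68 and 7.77 with VS-5584. Its groups overlapped, and the interval of its difference (-0.04) ran from -0.33 to 0.26. SELENOT, a thioredoxin-like oxidoreductase, was at 10.46 and 10.51 with DMSO and at 10.37 and 10.64 with VS-5584. The DMSO arrays lay between the 2 VS-5584 arrays, and the interval of the difference (0.03) ran from -0.30 to 0.35. A second probe set of SELENOT, which lists nearly the same transcripts, was at 9.85, 9.87, 9.81 and 9.90 in the same order, a difference of -0.003. Both probe sets therefore gave overlapping groups.

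The partners of these proteins were looked at from a list written beside them. VCP, the ATPase that pulls proteins out of the membrane, differed by -0.26 ± 0.18 (SE), DERL1 and DERL2 by -0.002 and -0.25, and ZDHHC6 by -0.13. On VS-5584 replicates 1 and 2, VCP differed by 0.01 and -0.53, and DERL1 by -0.01 and 0.01. DERL2 differed by -0.14 and -0.35, and ZDHHC6 by -0.11 and -0.15. UGGT1 and UGGT2, the folding sensors to which SELENOF binds, differed by -0.19 and -0.33. UGGT1 was at -0.01 on replicate 1 and -0.37 on replicate 2, and UGGT2 at -0.12 and -0.54. Of these 6 genes DERL2 and UGGT2 were lower on both VS-5584 arrays, a share near the 29.2% of all genes, and limma called none of the 6 over all genes, with none at an unadjusted p under 0.05. Without VS-5584 replicate 1, VCP and UGGT2 were called lower, in a fit that called 23.9% of all genes, and without replicate 2 no gene of this list was called.

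Of the glutathione peroxidases, which reduce peroxides with glutathione, GPX1 and GPX4 are members, with mean differences of opposite sign, neither of which passed the test. GPX1, the cytosolic enzyme that removes hydrogen peroxide, was at 6.17 and 6.08 with DMSO and at 6.30 and 6.27 with VS-5584. The 2 VS-5584 arrays were close together and both above the DMSO arrays, by 0.16 ± 0.13 (SE), with an interval of -0.13 to 0.45 (limma adjusted p = 0.671). GPX4, which reduces lipid peroxides and guards against ferroptosis, was at 7.91 and 8.0 with DMSO and at 8.0 and 7.34 with VS-5584. VS-5584 replicate 1 lay level with the DMSO arrays and replicate 2 alone was low, at 1.52-fold below the DMSO mean. The difference of -0.28 ± 0.20 (SE) had an interval of -0.73 to 0.17 (limma adjusted p = 0.629). It was -0.61 without replicate 1 (limma adjusted p = 0.00705, from a single VS-5584 array with the spread of the 2 DMSO arrays, a fit that called 23.9% of all genes), and 0.05 without replicate 2 (0.981). The low mean of GPX4 with VS-5584 thus rested on the array that stood apart. GPX2, GPX3 and GPX6 were between 4.73 and 5.28 on every array, below the filter, and were not tested.

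The thioredoxin reductases, selenoenzymes that keep thioredoxin reduced with NADPH, were lower on average by small amounts. TXNRD1, the cytosolic form, was at 9.08 and 9.10 with DMSO and at 8.94 and 8.84 with VS-5584. The DMSO arrays agreed to 0.02 and both VS-5584 arrays were below them, by -0.16 and -0.26. The difference of -0.21 ± 0.13 (SE) had an interval of -0.50 to 0.09 (limma adjusted p = 0.587), and was -0.05 after cyclic loess, where the groups overlapped. TXNRD2, the mitochondrial form, was at 5.86 and 5.91 with DMSO and at 5.88 and 5.73 with VS-5584, and the groups overlapped (interval -0.38 to 0.22). Their substrates TXN and TXN2 differed by -0.08 and -0.15, also with overlapping groups, and glutathione reductase (GSR), which uses no selenium, by -0.20. TXN was at -0.32 on VS-5584 replicate 1 and 0.16 on replicate 2, TXN2 at -0.07 and -0.24, and GSR at -0.11 and -0.28.

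TXNIP, which binds and inhibits thioredoxin and limits glucose uptake, was the gene of the partner list with the largest difference. It was at 8.36 and 8.39 with DMSO and at 9.03 and 8.92 with VS-5584. Unlike for SELENOP, the 2 VS-5584 arrays agreed, at 0.65 and 0.54 above the DMSO mean. The difference was 0.60 ± 0.13 (SE), with an interval of 0.30 to 0.89, and did not pass over all genes (limma adjusted p = 0.254). It passed after median centring (as did 0.898% of all genes), after cyclic loess (0.181%) and with the replicate number as a block (3.92%). It did not pass with an intensity trend or with 16 subtracted from every intensity. With the other filters or averaged probe sets no gene passed. Without VS-5584 replicate 1, where 23.9% of all genes passed on the spread of the 2 DMSO arrays, limma adjusted p was 0.0106, and without replicate 2 it was 0.119.

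Of the genes that make selenoproteins, neither of the 2 members passed the test. SEPHS2, which makes selenophosphate, the selenium donor, and is itself a selenoprotein, was at 6.96 and 7.28 with DMSO and at 7.0 and 7.07 with VS-5584. Here the DMSO arrays were the ones that disagreed, by 0.32, and the VS-5584 arrays lay between them (interval of the difference -0.42 to 0.25). SECISBP2, the SECIS-binding protein, was at 8.58 and 8.47 with DMSO and at 8.64 and 8.56 with VS-5584. Its groups overlapped, and the interval ran from -0.22 to 0.38.

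The selenium machinery list held 8 genes that insert selenocysteine or supply selenium without being selenoproteins. Of these, 7 had a probe set of 1 gene and 6 were tested, of which 5 were lower on average (62.7% of all genes were) and limma called 0, with 1 at an unadjusted p under 0.05. Their median log2 difference was -0.19, with -0.076 on VS-5584 replicate 1 and -0.27 on replicate 2, against -0.064, -0.002 and -0.14 for all genes. SEPHS1, a relative of SEPHS2 that has no selenocysteine, was at 9.34 and 9.28 with DMSO and at 9.19 and 8.54 with VS-5584, a difference of -0.44 ± 0.20 (SE; limma adjusted p = 0.480). It was -0.12 on replicate 1 and -0.77 on replicate 2. EEFSEC, the elongation factor for selenocysteine, differed by -0.24, TRNAU1AP, which binds the selenocysteine tRNA, by -0.22, SECISBP2L, a relative of SECISBP2, by -0.16, and SEPSECS, which makes selenocysteine on its tRNA, by -0.03. PSTK, the kinase that acts before SEPSECS, was at 5.64, 5.72, 5.54 and 5.43 in the order DMSO 1 and 2, VS-5584 1 and 2, and fell below the filter. Without VS-5584 replicate 1, SEPHS1 and EEFSEC were called lower, 2 of the 6 in a fit of a single VS-5584 array that called 23.9% of all genes, and without replicate 2 none of the list was called.

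Across the wider list of 25 human selenoprotein genes, SELENOP was the only tested gene with a mean difference above 0.18, and SELENOI the only one below -0.29. Of the list, 24 had a probe set of 1 gene, 18 were tested and 6 lay below the filter (GPX2, GPX3, GPX6, DIO1, DIO2 and DIO3, the last 3 being the thyroid hormone deiodinases). Limma called 0 of the 17 tested genes other than SELENOP, and 1 had an unadjusted p under 0.05. Of the 18, 8 were higher and 10 lower on average, which is 55.6% lower, against 62.7% of all genes tested. Their median difference was -0.06, the same as for all genes. Those higher on both VS-5584 arrays were SELENOP, GPX1, SELENOM and SELENOO, and those lower on both were SELENOS, TXNRD1, MSRB1, SELENOF and SELENOI. These 4 and 5 of 18 stand beside 14.7% and 29.2% of all genes, and nothing is read from them.

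SELENOI, an ethanolamine phosphotransferase that makes phosphatidylethanolamine, had the largest negative difference of the list. It was at 7.90 and 7.96 with DMSO and at 7.68 and 6.96 with VS-5584. Both VS-5584 arrays were below the DMSO arrays, replicate 2 by far the most, with differences of -0.25 and -0.98. The mean difference was -0.61 ± 0.21 (SE), with an interval of -1.09 to -0.14 (limma adjusted p = 0.401). It passed with the replicate number as a block, as did 3.92% of all genes. It did not pass after median centring, after cyclic loess, with an intensity trend or with 16 subtracted from every intensity. Without VS-5584 replicate 1, where 23.9% of all genes passed on the spread of the 2 DMSO arrays, limma adjusted p was 0.000879, and without replicate 2 it was 0.728.

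The remaining tested genes of the selenoprotein list differed little. SELENOF, a folding helper that binds UGGT1 and UGGT2, was at 10.47 and 10.38 with DMSO and at 10.36 and 10.28 with VS-5584, a difference of -0.11 ± 0.13 (SE). SELENOM, another thioredoxin-like protein of the endoplasmic reticulum, was at 5.83 and 5.96 with DMSO and at 6.11 and 6.01 with VS-5584. SELENOO, a mitochondrial protein that attaches AMP to other proteins, was at 6.21 and 6.06 with DMSO and at 6.33 and 6.29 with VS-5584. SELENOM and SELENOO differed by 0.17 each, where their DMSO arrays were 0.13 and 0.15 apart. As for GPX1, both VS-5584 arrays were slightly higher, and neither gene passed the test (limma adjusted p = 0.671 and 0.659). MSRB1, which repairs oxidized methionine, differed by -0.14, and SELENOH, SELENON, SELENOV and SELENOW by 0.00, 0.01, -0.13 and 0.08, with overlapping groups.

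**Figure D3:**
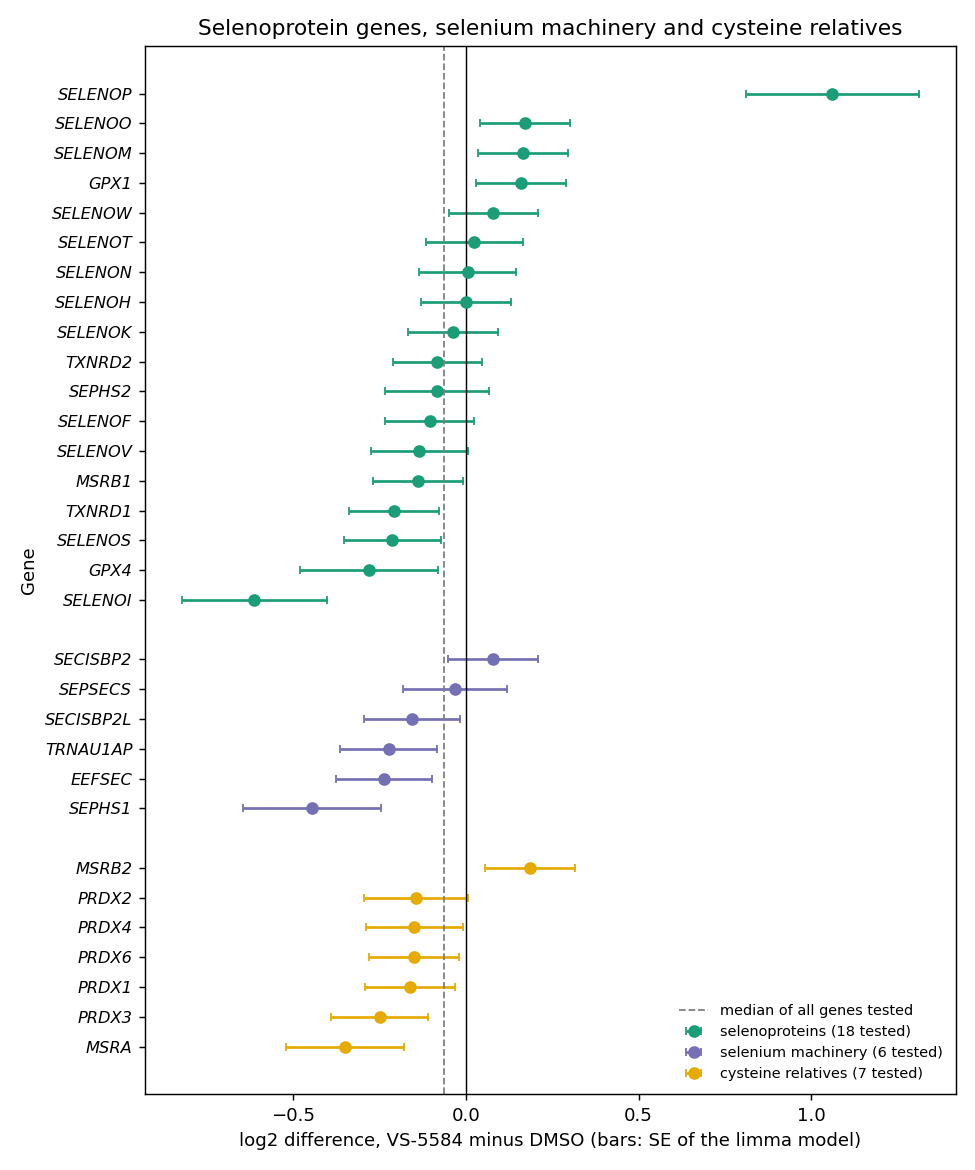
Mean log2 difference, VS-5584 minus DMSO, with the SE of the limma model, for the tested genes of 3 lists, and the median of all genes tested as a dashed line (-0.064). SELENOP (1.06) lies far to the right of the other 17 selenoprotein genes, and SELENOI (-0.61) to the left.

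A further list, the cysteine relatives, held relatives of selenoproteins, and peroxidases, that use cysteine in place of selenocysteine. Most of its tested genes are peroxiredoxins, so it is not a gene-by-gene match to the selenoproteins. Of 11 listed, 10 had a probe set of 1 gene and 7 were tested, of which 6 were lower on average and limma called 0, with 0 at an unadjusted p under 0.05. Of all genes tested, 62.7% were lower on average. The median difference was -0.15, against -0.064 for all genes, with -0.12 on VS-5584 replicate 1 and -0.20 on replicate 2. MSRA, the other methionine sulfoxide reductase, was at 7.69 and 7.66 with DMSO and at 7.55 and 7.10 with VS-5584, and MSRB2, the mitochondrial one, at 7.87 and 7.78 and at 8.05 and 7.96. MSRA was thus lower and MSRB2 higher on both VS-5584 arrays, by -0.35 ± 0.17 and 0.19 ± 0.13 (SE). Of the 7 tested genes 4 were lower on both, MSRA among them, where 29.2% of all genes were. MSRB2 was the 1 gene higher on both, where 14.7% of all genes were. The peroxiredoxins, which reduce peroxides through cysteine, differed by -0.25 (PRDX3) to -0.15 (PRDX2). Without VS-5584 replicate 1, MSRA and PRDX3 were called lower, in the fit that called 23.9% of all genes, and without replicate 2 none of the list was called. GPX7 and GPX8, the cysteine glutathione peroxidases of the endoplasmic reticulum, and MSRB3 lay below the filter.

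The genes whose pattern over the 4 arrays was most like that of SELENOP were found by the Euclidean distance between log2 values centred on each gene's mean. The 5 nearest of the tested genes were RASGRP3 (distance 0.365), a Ras exchange factor, DKK1 (0.424), a secreted Wnt antagonist, BTG1 (0.482), an antiproliferative gene, IGKC (0.502), the immunoglobulin kappa constant region, and MUC13 (0.507), a membrane mucin. All 5 were highest on VS-5584 replicate 2. IGKC was at 7.37 and 6.89 with DMSO and at 7.37 and 8.20 with VS-5584, so that its groups overlapped, and for the other 4 they did not. RASGRP3 was 2.10-fold, MUC13 1.89-fold, DKK1 1.78-fold and BTG1 1.71-fold higher on average. SELENOP had the largest gap between the VS-5584 replicates of the 6 genes, 0.95 against 0.26 to 0.83. These genes were selected for likeness over 4 arrays, so the likeness is a description.

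**Figure D4:**
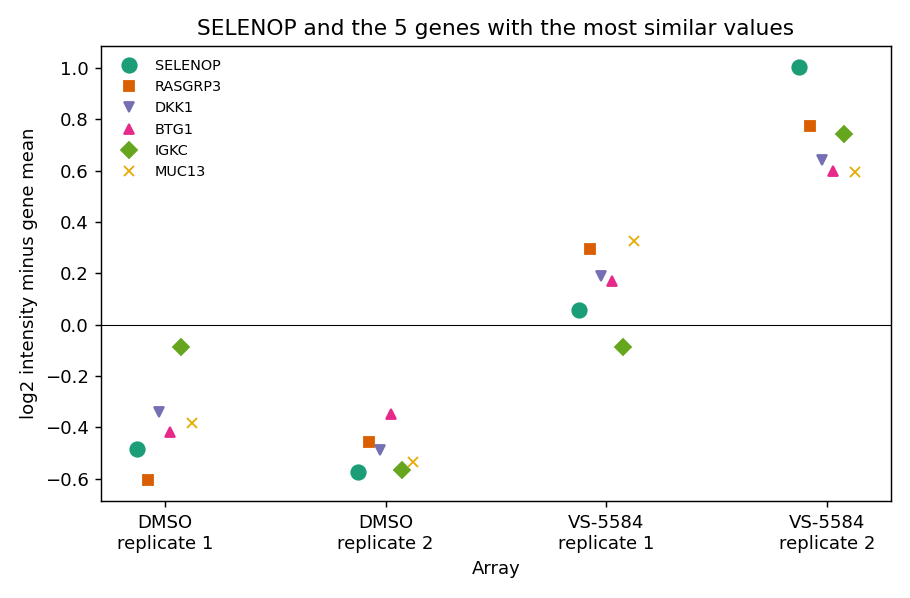
Log2 intensity minus the gene's mean over the 4 arrays, for SELENOP and the 5 tested genes nearest to it, on each DMSO and VS-5584 array. All 6 genes are highest on VS-5584 replicate 2, and SELENOP has the widest gap between the 2 VS-5584 arrays (0.95).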

How the data were processed

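Each array gave 1 deposited intensity for each of 28869 probe sets, on a linear scale. The submitters' processing notes name RMA without a version. Its output is normally on the log2 scale, and how the authors came from it to these intensities is not stated. A constant added by the authors would shrink the differences of dim genes. No detection call could be made, and precision is limited by there being 4 arrays. Intensities were turned into log2 values and not scaled again.

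Genes were named from the platform annotation, through RefSeq (GRCh38.p14) by gene ID: 19310 probe sets carried 1 gene, of which 19279 matched. The 40% of genes with the lowest mean (below an intensity of 48.9) were left out. The comparison used limma 3.58.1 under R 4.3.3 (lmFit, then eBayes; two-sided; Benjamini-Hochberg over all 11026 genes; threshold 0.05), from which the SE and the 95% intervals come. The code was tested on simulated data. All 10 members and any gene of the textbook lists (selenoproteins, selenium machinery, cysteine relatives, partners, SELENOP receptors) could be named, with the 5 genes most like SELENOP. Members and lists were chosen with earlier results of these data known. Alternatives were the replicate block, 2 scalings, 2 filters, an intensity trend, averaged probe sets, 16 subtracted from every intensity, and leaving out each array. Promoter sequences are RefSeq's, and all 10 members matched by symbol. Figures were drawn with matplotlib 3.10.9.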

Additional observations from a re-analysis of the deposited data

How the results depend on the processing

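The SELENOP difference, on which the gene was selected, was 1.18 after median centring and 1.23 after cyclic loess. The replicate block, the filters, the intensity trend and averaged probe sets leave it at 1.06 by construction. As its groups did not overlap, subtracting 16 or leaving out an array could not turn its sign. The difference was 0.59 without VS-5584 replicate 2 and 1.54 without replicate 1. The number of genes passing limma over all genes was 0 as reported and 0 with the other filters or averaged probe sets, but 432 with the replicate number as a block, 99 after median centring, 20 after cyclic loess, 80 with an intensity trend and 2 with 16 subtracted. It was 2 without VS-5584 replicate 2, 2636 without replicate 1, and 19 and 21 without DMSO replicates 1 and 2. The titles number the replicates alike in both groups and do not say whether same-numbered cultures were handled together. The deviations of same-numbered arrays correlated at 0.156 across genes, which with 2 pairs cannot settle whether they were paired. The block called none of the 9 members other than SELENOP. After centring and loess the median of the 10 members was 0.057 and 0.085, and that of the selenoprotein list 0.057 and 0.062. The machinery list was at -0.073 and -0.017, and the cysteine relatives at -0.035 and -0.076. After loess, 1 member was lower on both VS-5584 arrays. With an array left out, 3 to 4 members had every remaining VS-5584 array below every remaining DMSO array (4 without DMSO replicate 1 or either VS-5584 array). In the same fits 3 to 4 members had them above (4 without VS-5584 replicate 2). With fewer arrays, groups overlap less by construction. The share of all genes tested that separated in the same way was not counted for the fits with an array left out. These member counts therefore have no background beside them, and nothing is read from them. Small differences changed sign: SELENOK to 0.08 (centring) and 0.14 (loess), TXNRD2 to 0.034 (centring), and SEPHS2 to 0.033 (centring) and 0.064 (loess). With each array left out in turn, differences ran from -0.082 to 0.0084 for SELENOK, -0.24 to 0.074 for SEPHS2, -0.11 to 0.16 for SELENOT and -0.61 to 0.046 for GPX4, with the sign turned without VS-5584 replicate 1, DMSO replicate 2, VS-5584 replicate 2 and VS-5584 replicate 2, respectively. The causes were not tested.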

Other observations

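A selenoprotein gene and a selenium gene were measured by probe sets that the annotation shares between genes, so their values cannot be assigned to either. The probe set listing TXNRD3, the thioredoxin reductase of testis, together with TXNRD3NB was at a log2 intensity of 5.09 and 5.05 with DMSO and at 5.16 and 5.01 with VS-5584. The probe set listing SCLY, the lyase that recovers selenium from selenocysteine, together with the readthrough gene UBE2F-SCLY was at 5.83 and 5.98 with DMSO and at 5.83 and 5.80 with VS-5584. The groups lay close together for both.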
